A study of Mus musculus with 9 samples.

Results

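The late-rising genes without a KEGG pathway were 65 of the 6462 genes in the deposited expression table of BV2 cells given bacterial lipopolysaccharide (LPS). A gene entered the set when its mean level on the log2(FPKM + 1) scale was at least 1 higher at 12 h than in untreated cells and at least 1 higher at 12 h than at 1 h. The same mean at 1 h had to lie less than 1 above untreated cells, the mean FPKM over all libraries had to be at least 1, and the table had to give no KEGG pathway for the gene. FPKM is a density of sequenced fragments, corrected for the length of the transcript and the size of the library. In all, 157 listed genes met the conditions on level and time. Of these, 86 carried a pathway and 6 without one were left out by symbol (Ifitm3, Ifitm6, Ifit3, Usp18, Slc15a3 and Chac1), which left the 65. The rule used the values of all 3 groups, so the levels and differences below describe how the genes were chosen and were not tested.

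BV2 is an immortalized line of mouse microglia, the resident macrophages of the brain. The groups were untreated cells, cells given LPS at 200 ng/ml for 1 h and cells given the same dose for 12 h, with 3 libraries each and 9 in all. RNA was extracted with TRIzol and sequenced from libraries made with a stranded mRNA kit. No cells were kept for 1 h or 12 h without LPS, so LPS and time in culture cannot be told apart, and the labels name no separate cultures behind the 3 libraries. The title of the series sets the data in a study of the kinase PLK2 in microglial activation.

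LPS is an outer-membrane component of Gram-negative bacteria that is sensed by Toll-like receptor 4. Its signaling through MyD88 and NF-kB switches on a first set of genes with little delay, while signaling through TRIF and IRF3 leads to type I interferon, which the cells then sense through their own receptor. Genes that respond late in macrophages therefore often include interferon-inducible antiviral genes, and also products that limit inflammation, such as the antagonist of the interleukin-1 receptor and inhibitors of proteases. A KEGG pathway is a curated diagram of interacting genes, and a gene without one can still have a well-known function.

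The microglial label was checked against 12 markers of microglia and macrophages, of which 8 were listed. Their summed level lay between 665 and 705 FPKM without LPS, between 637 and 648 FPKM at 1 h and between 702 and 719 FPKM at 12 h, and Cd68, a lysosomal glycoprotein of macrophages, made up most of it at 391 FPKM both at 12 h and without LPS. The other markers did not stay level. Trem2 averaged 47.5 FPKM at 12 h and 90.5 FPKM in untreated cells, and Csf1r 47.5 and 66.1 FPKM. Itgam averaged 70.3 FPKM at 12 h and 27.9 FPKM in untreated cells, and Adgre1 62.0 and 36.6 FPKM. Of 13 markers of other brain cells only Olig2 was listed, at 0 in both LPS groups, and the remaining 12 were not analysed here. The best match of the steps in the lowest FPKM values put the sequencing depth of the other 8 libraries at 1.08 to 1.17 times that of untreated library 1. These ratios rest on 5 to 16 genes a library, and the absolute depth is unknown. The search allowed only ratios near 1 and always returns a best one, so it cannot show that the depths were alike. The authors' table flags every listed gene as differing, with the contrast not stated. The shares of genes called below are high, and the reason was not tested. The sum of all listed FPKM lay between 195872 and 198075 without LPS, between 203515 and 205413 at 1 h and between 223720 and 228207 at 12 h.

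Promoter sequence, 250 bases before to 50 bases after an annotated start, was available from RefSeq (build GRCm38.p6) for 49 of the 65 genes, as 63 promoters. The interferon-stimulated response element (ISRE), searched on both strands as GAAA, any 2 bases and GAAA, is the site bound by interferon regulatory factors and the ISGF3 complex. It stood in 11 of the 63 promoters (17.5%), against 20.4% of the promoters of late-rising genes with a pathway, 3.63% of the promoters of all tested genes and 3.44% of all RefSeq promoters. The AP-1 site, searched as TGANTCA on both strands, is bound by FOS and JUN dimers. It stood in 12 of the 63 promoters (19%), against 19.4%, 5.34% and 7.81% in the same 3 sets. The windows below are shown because they hold these letters in genes that are described with their values further on, either for a large late difference or high level or as members of a list of like function. Each runs 5′ to 3′ on the strand of the gene, with the matched letters in capitals. The ISRE windows were at chr8:71537577-71537606 for Bst2, chr11:78984960-78984989 for Lgals9, chr7:104465210-104465239 for Trim30a and chr5:137858262-137858291 for Pilrb1, all on the minus strand.
Bst2: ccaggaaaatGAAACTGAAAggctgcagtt
Lgals9: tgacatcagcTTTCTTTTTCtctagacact
Trim30a: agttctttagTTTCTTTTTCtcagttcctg
Pilrb1: agccacttagGAAATGGAAAacagtagata

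The match began 124 bases before the annotated start in Bst2, 55 bases before it in Lgals9, 36 bases before it in Trim30a and 232 bases before it in Pilrb1. In Lgals9 and Trim30a the letters lie on the opposite strand. Bst2 held 2 overlapping matches and Lgals9 held 2 separate ones. The neighbouring gene Pilrb2 had the same 30 bases as Pilrb1 at the same distance from its start. The AP-1 windows were at chr2:24336707-24336736 for Il1rn and chr11:83175140-83175169 for Slfn4, both on the plus strand, 141 and 34 bases before the start.
Il1rn: cttctgctagacTGAGTCAcgcctctggaa
Slfn4: gtctcagagtgaTGACTCAatttaacttat

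An ISRE match was found in 10 genes, which were Aoah, Bst2, Ifi203, Lgals9, Mnda, Phf11b, Pilrb1, Pilrb2, Srgn and Trim30a. An AP-1 match was found in 10 genes as well, and Ifi203 and Trim30a had both, so 18 of the 49 genes held at least 1 of these motifs. Of the 14 interferon-inducible and antiviral genes with a promoter entry, 5 held an ISRE match and 5 an AP-1 match. The loose NF-kB core, searched as GGG, any 5 bases and CC, stood in 73.0% of the promoters, against 59.1% for late-rising genes with a pathway and 69.3% for all tested genes. The interferon-gamma activated site TTCNNNGAA stood in 7.94%, against 12.9% and 6.65% in those sets. The CARE element TGATGNAA of ATF4 and C/EBP stood in 7.94%, against 8.60% and 2.54%. The NRF2 core TGANNNNGC stood in 49.2%, against 50.5% and 43.2%, and an AP-1 match followed by GC is also a match of that core. The TATA box TATAAA stood in 11.1%, against 21.5% and 6.47%. These shares are descriptions of letters in a short window, and binding was not measured.

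**Figure D1:**
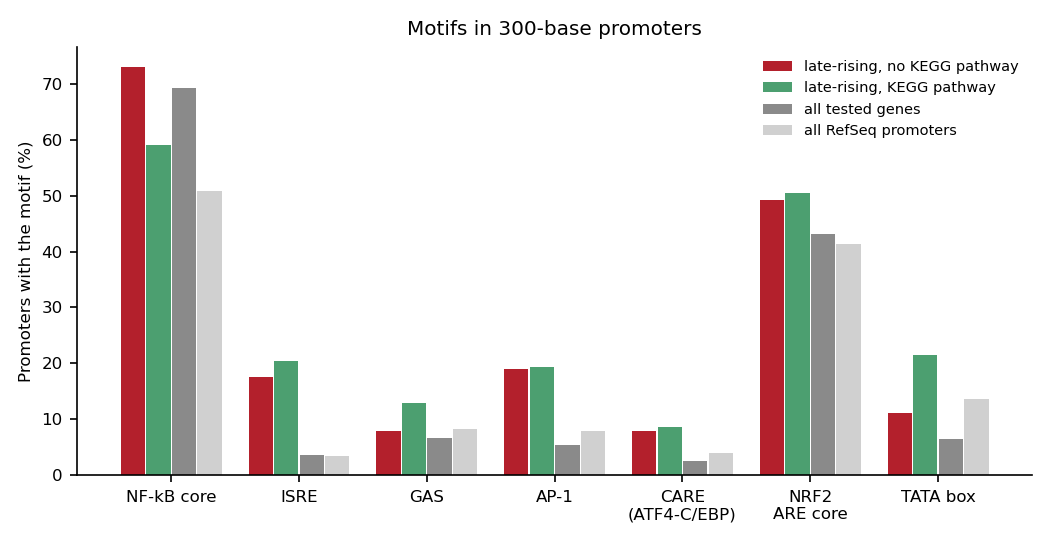
Share of 300-base promoters that hold each motif on either strand, in percent, for the late-rising genes without a KEGG pathway (63 promoters), late-rising genes with one, all tested genes and all RefSeq promoters. The ISRE and AP-1 bars of both late-rising sets (17.5% to 20.4%) stand above those of all tested genes (3.63% and 5.34%).

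As a set, the 65 genes stayed near their untreated level at 1 h and were higher at 12 h. Their median level was 4.98 FPKM in untreated cells, 4.58 FPKM at 1 h and 15.2 FPKM at 12 h. The median difference of 12 h minus untreated was 1.47 on the log2(FPKM + 1) scale, with a range of 1.00 to 4.0, against a median of 0.03 over the 5643 tested genes. The median difference of 12 h minus 1 h was 1.56, and that of 1 h minus untreated was -0.01, with a range of -0.50 to 0.84. A difference of at least 2 on that scale at 12 h over untreated cells was found in 17 of the 65, and the mean FPKM itself was at least 4 times the untreated mean in 27. In untreated cells 11 genes lay below 1 FPKM, and at 12 h 15 lay at 50 FPKM or above.

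The summed level of the 65 genes was 668, 648 and 653 FPKM in the untreated libraries, 664, 663 and 691 FPKM at 1 h and 2360.0, 2285 and 2534 FPKM at 12 h. That sum made up between 0.331% and 0.337% of all listed FPKM without LPS, between 0.323% and 0.340% at 1 h and between 1.02% and 1.11% at 12 h. The 3 libraries at 12 h therefore stood far above the other 6, which lay close together. In bulk RNA a change in the number of cells that express a gene and a change in RNA per cell cannot be told apart. Bst2, Wfdc17, Il1rn, Slpi and Esd made up 39.4% of the sum at 12 h.

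In each of the 65 genes every 12 h library lay above every untreated library and every 1 h library, which the rule makes likely, and 41.9% and 42.4% of all tested genes did the same. In a limma fit on all tested genes with Benjamini-Hochberg adjustment over the table, all 65 were called higher at 12 h than in untreated cells, against a background of 41.1%. All 65 were also called higher at 12 h than at 1 h, against 41.9%. Nothing is read from these counts, since the rule used the same contrasts.

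**Figure D2:**
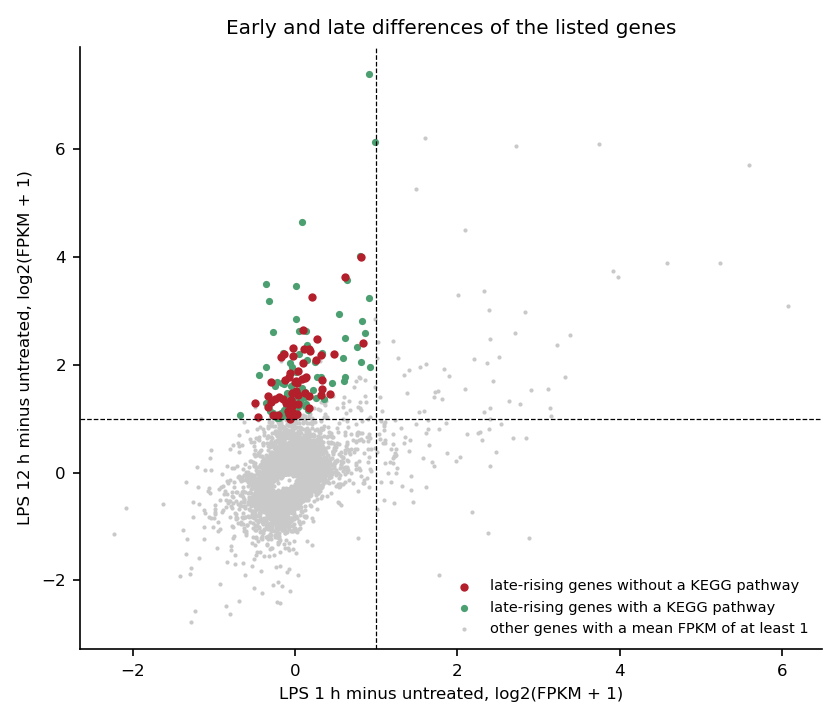
Difference of 12 h minus untreated (vertical) against 1 h minus untreated (horizontal) for each of the 5643 tested genes, both in log2(FPKM + 1). Dashed lines mark the limit of 1, and the late-rising genes without a KEGG pathway (red) lie above the horizontal line, between -0.50 and 0.84 at 1 h.

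The thresholds cut through a continuous range. Just inside the limit on 12 h minus untreated were Fam49a at 1.00, B430306N03Rik at 1.03 and Cd300lf at 1.06, and just outside were Padi2, Metrnl and Flrt2 at 0.99 each. On 12 h minus 1 h, Cdc42ep2 and Ifi35 at 1.03 and Fam49a at 1.07 were inside, and Manf at 0.97, Nfe2l1 at 0.96 and Tnip3 at 0.96 were outside. On 1 h minus untreated, Cebpd at 0.84, Il1rn at 0.81 and Slpi at 0.61 were inside, and 3 genes that met every other condition were outside, Tnip1 at 1.02, Saa3 at 2.72 and Acod1 at 3.75. By mean FPKM over all 9 libraries Mnda at 1.12, Pstpip2 at 1.13 and AA467197 at 1.21 were inside, and Rnf183 at 0.965, Agpat9 at 0.948 and Klra2 at 0.756 were outside.

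The genes were arranged by the role of their products into 7 groups, after their values had been seen. Secreted inhibitors and cytokine proteins had the largest median difference at 12 h, 2.24 over 10 genes, and 7 of them differed by at least 2. The name of this group is broad, as it also holds Hp, Lgals9, Lgals3bp and Srgn, which are other kinds of protein. In the deposited annotation 2010005H15Rik, Lgals9 and Spink5 carry the term cytosol as well as a term for the outside of the cell. Wfdc17 carries neither extracellular region nor extracellular space. The median was 1.78 over 5 genes of other or unassigned role, 1.71 over 4 transcription regulators and 1.55 over 17 interferon-inducible and antiviral genes. It was 1.44 over 7 proteases and hydrolases, 1.43 over 14 membrane receptors and membrane proteins and 1.32 over 8 signaling and cytoskeletal genes. Errors below are the SD of 3 libraries beside a mean, and SE is the standard error of a log2 difference from the fit. Whether the 1 h and untreated libraries overlapped is given gene by gene as description. The share of all tested genes without such overlap was not counted. Of all tested genes, 24.1% were called higher at 1 h than in untreated cells and 34.9% lower, so a separation at 1 h is not particular to these genes.

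**Figure D3:**
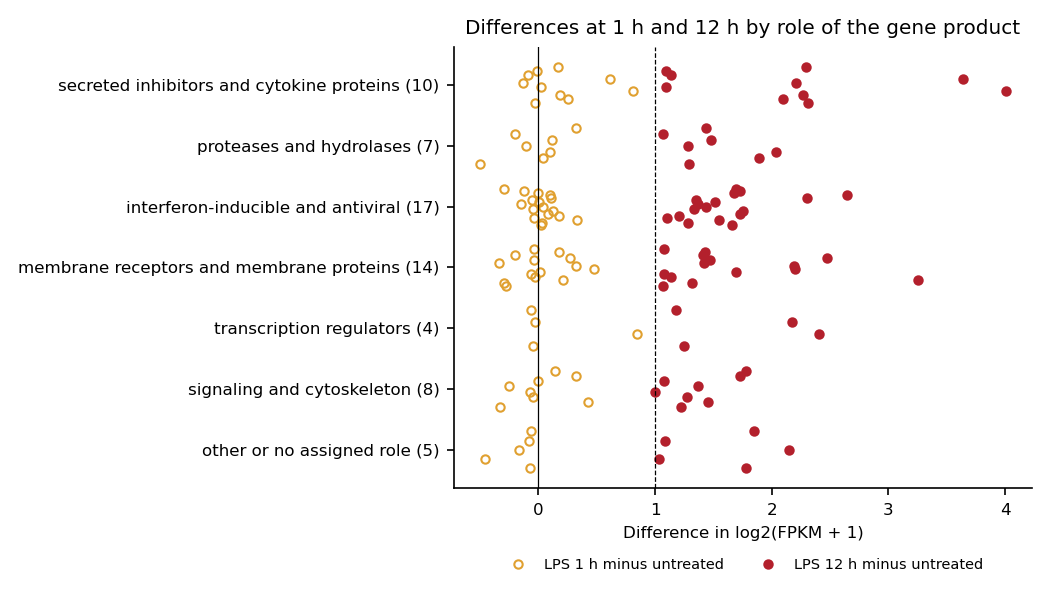
Differences in log2(FPKM + 1) of each of the 65 genes, 1 h minus untreated (open circles) and 12 h minus untreated (filled circles), by role of the product with the number of genes in parentheses. The dashed line marks the limit of 1, and the points farthest to the right are Il1rn (4.0) and Slpi (3.64) among the secreted proteins and Lrrc25 (3.26) among the membrane proteins.

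Among the secreted proteins, Il1rn encodes the interleukin-1 receptor antagonist, which occupies the receptor without signaling. It had 10.3, 10.5 and 11.3 FPKM in the untreated libraries, 19.1, 18.1 and 21.7 FPKM at 1 h and 181, 165 and 219 FPKM at 12 h. The groups did not overlap, the 1 h libraries already stood above the untreated ones, and 12 h library 3 was the highest. The log2 difference of 12 h minus untreated was 4.0 (SE 0.08), the largest of the 65, and 1 h minus untreated was 0.81. Slpi, an inhibitor of serine proteases released by leukocytes, had 12.9, 11.2 and 10.5 FPKM in the untreated libraries, 17.7, 16.8 and 19.9 FPKM at 1 h and 153, 144 and 166 FPKM at 12 h. Its groups were again separate and in the order of time, with a 12 h difference of 3.64 (SE 0.07) and a 1 h difference of 0.61.

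Wfdc17 encodes a small protein with a WAP domain, the domain that Slpi also carries. It had 42.3, 35.4 and 35.7 FPKM in the untreated libraries, 45.2, 44.2 and 38.3 FPKM at 1 h and 179.6, 167 and 225 FPKM at 12 h. The 1 h and untreated libraries overlapped, and all 12 h libraries were higher, with library 3 the highest. Hp encodes haptoglobin, the acute-phase protein that binds free hemoglobin, and had 6.17, 5.49 and 5.93 FPKM in the untreated libraries, 7.08, 6.39 and 7.0 FPKM at 1 h and 31.8, 31.6 and 32.6 FPKM at 12 h. Its 1 h libraries lay a little above the untreated ones, and its 12 h difference was 2.27 (SE 0.05), with 12 h libraries close to each other. Ebi3, the shared beta subunit of interleukin-27 and interleukin-35, had 4.17, 5.23 and 4.1 FPKM in the untreated libraries, 5.44, 5.85 and 5.4 FPKM at 1 h and 22.1, 23.1 and 22 FPKM at 12 h. The 12 h libraries were all far above the other 6, and the 12 h difference was 2.09 (SE 0.07).

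Lgals9 encodes galectin-9, a lectin that binds beta-galactosides on glycoproteins. It had 13.9, 13.8 and 12.6 FPKM in the untreated libraries, 12.3, 11.1 and 13.4 FPKM at 1 h and 65.4, 63.5 and 68.7 FPKM at 12 h. The 1 h and untreated libraries overlapped, and the 12 h difference was 2.21 (SE 0.06). The gene 2010005H15Rik, named Csta2 in RefSeq, belongs to the cystatin A family of cysteine protease inhibitors and had 0.232, 0.43 and 0.528 FPKM in the untreated libraries, 0.501, 0.107 and 0.534 FPKM at 1 h and 7.17, 5.28 and 5.41 FPKM at 12 h. Its 6 earlier libraries were all below 1 FPKM, and its spread was the largest of the 65 at 1 h (SD 0.26 on the log2 scale). Srgn, the proteoglycan serglycin of secretory granules, had 14.7 ± 0.69 FPKM untreated, 14.6 ± 1.32 FPKM at 1 h and 32.7 ± 2.72 FPKM at 12 h. Lgals3bp, a secreted glycoprotein that binds galectin-3, had 29 ± 2.47 FPKM untreated, 29.5 ± 1.14 FPKM at 1 h and 63.2 ± 0.683 FPKM at 12 h. Spink5, a Kazal-type inhibitor of serine proteases, had 3.33 ± 0.377 FPKM untreated, 3.08 ± 0.269 FPKM at 1 h and 8.5 ± 0.427 FPKM at 12 h. These 3 secreted products differed by 1.10 to 1.14 on the log2 scale at 12 h, the low end of the set.

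**Figure D4:**
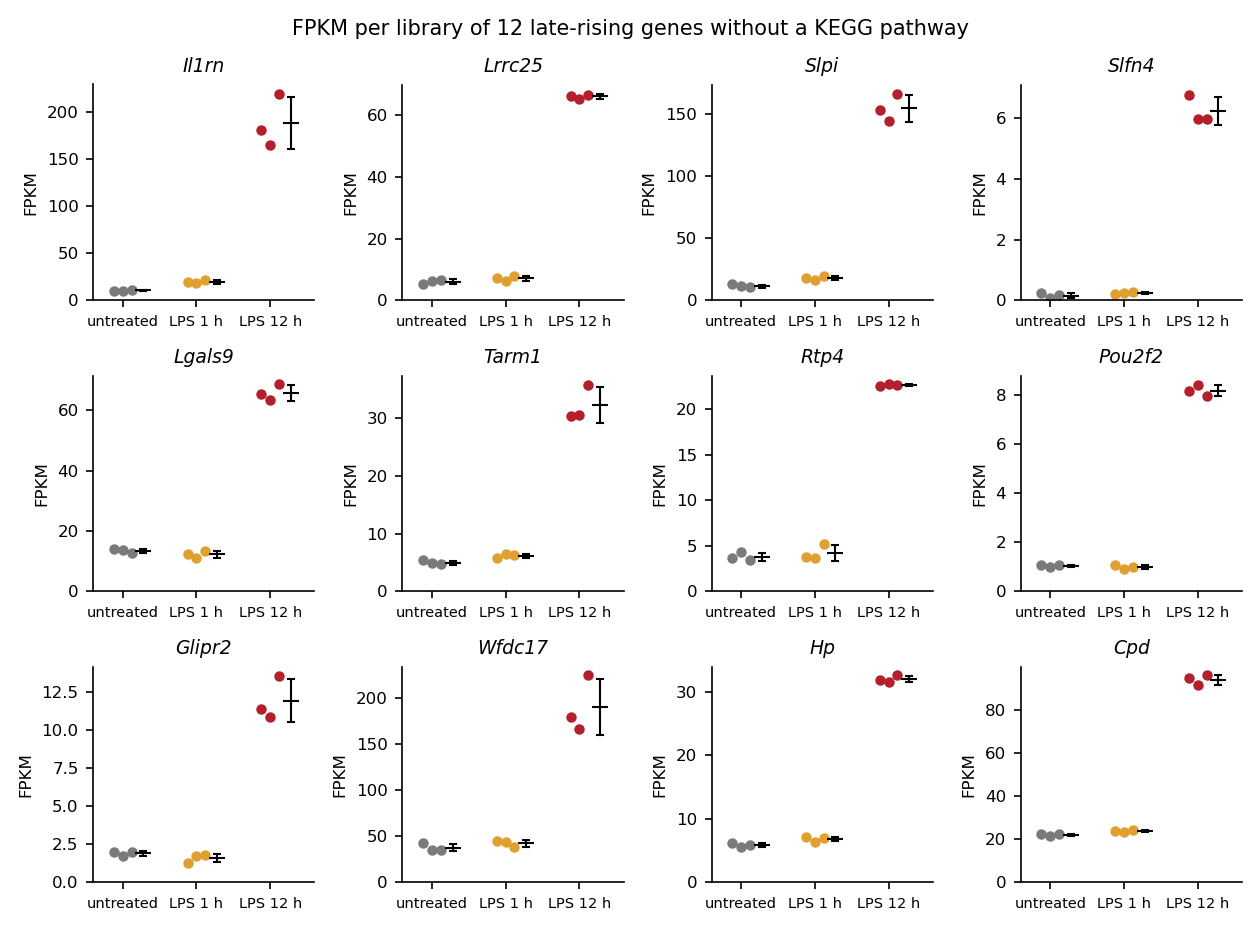
FPKM in each library of the 12 genes with the largest smaller difference of 12 h over either earlier group, among genes with an assigned name and at least 5 FPKM at 12 h. Points are libraries, bars the mean and SD of 3 libraries, axes start at 0 and differ in range; in all 12 panels the 12 h points (for Il1rn 165 to 219 FPKM) lie above the others.

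Of the proteases and hydrolases, Cpd encodes carboxypeptidase D, a membrane enzyme of the secretory route that removes basic residues from the end of proteins. It had 22.5, 21.7 and 22.2 FPKM in the untreated libraries, 23.7, 23.3 and 24.3 FPKM at 1 h and 94.5, 91.3 and 95.9 FPKM at 12 h, a tight pattern with a 12 h difference of 2.04 (SE 0.03). Aoah encodes acyloxyacyl hydrolase, which removes fatty acids from the lipid A of LPS and so inactivates it. Aoah had 1.24, 1.18 and 1.17 FPKM in the untreated libraries, 1.19, 1.1 and 1.51 FPKM at 1 h and 7.32, 6.53 and 7.62 FPKM at 12 h, with overlap between 1 h and untreated cells and a 12 h difference of 1.89 (SE 0.07). Mmp12, macrophage elastase, had 2.46, 3.56 and 3.42 FPKM in the untreated libraries, 3.13, 3.72 and 3.6 FPKM at 1 h and 10.3, 9.1 and 12.3 FPKM at 12 h. Its untreated libraries had the largest spread of the 65 in that group (SD 0.22 on the log2 scale), and the 12 h libraries still lay above all others.

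Rhbdf2 encodes an inactive rhomboid protein that carries the protease ADAM17 to the cell surface, where tumor necrosis factor is shed. It had 6.67, 6.29 and 6.92 FPKM in the untreated libraries, 8.4, 8.5 and 8.7 FPKM at 1 h and 20.0, 19.1 and 19.8 FPKM at 12 h, and each of its groups stood apart from the next. Adam8, a membrane metalloprotease, had 28.2, 28.5 and 28.6 FPKM in the untreated libraries, 19.3, 19.4 and 21 FPKM at 1 h and 69.7, 69.9 and 74.1 FPKM at 12 h. All 1 h libraries lay below all untreated ones, and its 1 h difference of -0.50 was the lowest of the 65. Esd, the esterase that also acts as S-formylglutathione hydrolase, was among the most abundant, with 142, 140.2 and 145 FPKM at 12 h, against 59.3, 54.9 and 59.4 FPKM in untreated cells. Prss50, a serine protease described mainly in testis, had 13.8 ± 0.581 FPKM untreated, 11.9 ± 1.11 FPKM at 1 h and 29.9 ± 0.803 FPKM at 12 h. Both Esd and Prss50 lay below untreated cells at 1 h without overlap.

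Of the 17 interferon-inducible and antiviral genes, 2 were called higher at 1 h, 1 lower and 14 neither, where 24.1% of all tested genes were called higher and 34.9% lower. The rule itself limited how far they could be higher at that time. Bst2, called tetherin because it holds budding viruses at the cell surface, was the most abundant of all 65 in each group. It had 84.3, 89.1 and 79.5 FPKM in the untreated libraries, 85.2, 88.9 and 82.2 FPKM at 1 h and 267, 261 and 275 FPKM at 12 h. The 1 h and untreated libraries overlapped, and the 12 h difference was 1.66 (SE 0.04). Slfn4, a schlafen family gene of myeloid cells, had 0.232, 0.0719 and 0.17 FPKM in the untreated libraries, 0.201, 0.23 and 0.284 FPKM at 1 h and 6.76, 5.96 and 5.96 FPKM at 12 h. It was barely detected before 12 h, and its mean FPKM at 12 h was 39.5 times the untreated mean, a ratio that rests on very low untreated values. Rtp4, a chaperone-like protein for membrane receptors that interferon induces, had 3.67, 4.31 and 3.46 FPKM in the untreated libraries, 3.76, 3.68 and 5.21 FPKM at 1 h and 22.5, 22.7 and 22.6 FPKM at 12 h. Its 12 h libraries were nearly equal, and 1 h library 3 was the highest of the earlier ones.

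Isg20, an exonuclease that degrades RNA, had 0.50, 0.454 and 0.495 FPKM in the untreated libraries, 0.471, 0.479 and 0.774 FPKM at 1 h and 3.92, 3.27 and 4.69 FPKM at 12 h. Trim30a, a TRIM family protein described in mouse as a brake on Toll-like receptor signaling, had 1.75, 1.58 and 1.51 FPKM in the untreated libraries, 1.8, 1.26 and 1.2 FPKM at 1 h and 7.53, 7.83 and 7.58 FPKM at 12 h. In both genes the 1 h and untreated libraries overlapped and the 12 h libraries were several times higher. Xaf1, which binds the apoptosis inhibitor XIAP, had 1.01, 1.09 and 0.753 FPKM in the untreated libraries, 0.627, 0.552 and 0.586 FPKM at 1 h and 5.1, 5.21 and 5.54 FPKM at 12 h. It was the only gene of this group called lower at 1 h, with a difference of -0.29, and its 1 h libraries all lay below the untreated ones. Helz2, a helicase and transcriptional coactivator, had 6.05, 6.11 and 6.14 FPKM in the untreated libraries, 7.18, 7.89 and 8.74 FPKM at 1 h and 20.5, 19.2 and 19.8 FPKM at 12 h. It was called higher at 1 h, as was Ifi35, an interferon-induced protein with 15.4 ± 0.836 FPKM untreated, 17.6 ± 2.04 FPKM at 1 h and 36.9 ± 1.4 FPKM at 12 h.

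Of the ADP-ribosyltransferases, Parp14 had 3.45 ± 0.102 FPKM untreated, 3.58 ± 0.146 FPKM at 1 h and 11.1 ± 0.417 FPKM at 12 h. Parp12 had 12.6 ± 1.01 FPKM untreated, 12.1 ± 0.689 FPKM at 1 h and 33.1 ± 0.832 FPKM at 12 h. Rnf213, a very large ubiquitin ligase that can modify the lipid A of bacteria in the cytosol, had 20.9 ± 0.919 FPKM untreated, 20.2 ± 1.22 FPKM at 1 h and 55.1 ± 1.6 FPKM at 12 h. Tor3a, a torsin ATPase of the endoplasmic reticulum, had 7.61 ± 0.328 FPKM untreated, 7.6 ± 0.226 FPKM at 1 h and 26.5 ± 0.258 FPKM at 12 h. Epsti1, an interferon-inducible gene first named in breast tissue, had 6.59 ± 0.602 FPKM untreated, 6.78 ± 0.512 FPKM at 1 h and 17.4 ± 0.704 FPKM at 12 h. In these 5 genes the earlier groups overlapped and the 12 h difference ran from 1.28 in Epsti1 to 1.68 in Tor3a.

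Several members are neighbours in the genome and close relatives in sequence, so reads may be split between copies and their values are less certain. Mnda (Ifi211 in RefSeq) and Ifi203, of the IFI200 family of nuclear DNA-binding proteins, lie next to each other on chromosome 1 with no protein-coding gene between them. Mnda had 0.167 ± 0.0596 FPKM untreated, 0.271 ± 0.0272 FPKM at 1 h and 2.93 ± 0.341 FPKM at 12 h. Ifi203 had 2.41 ± 0.0837 FPKM untreated, 2.34 ± 0.249 FPKM at 1 h and 6.35 ± 0.555 FPKM at 12 h. Phf11b and Phf11d, PHD finger genes on chromosome 14, are also adjacent. Phf11d had 4.55 ± 0.202 FPKM untreated, 4.58 ± 0.245 FPKM at 1 h and 14.8 ± 0.931 FPKM at 12 h. Phf11b had 3.34 ± 0.219 FPKM untreated, 2.91 ± 0.148 FPKM at 1 h and 10.2 ± 1.07 FPKM at 12 h. The log2 differences at 12 h were 1.75 in Mnda and 1.10 in Ifi203, and 1.51 in Phf11d and 1.37 in Phf11b. The receptor genes Pilrb1 and Pilrb2 on chromosome 5 form another such pair. On chromosome 17 Trem3 and B430306N03Rik are separated by Treml4 and Treml2. Of the 65 genes 11 were on chromosome 11 and 7 on chromosome 7.

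Among the membrane proteins, Lrrc25, a leucine-rich repeat protein of myeloid cells, had 5.24, 6.17 and 6.71 FPKM in the untreated libraries, 7.34, 6.28 and 7.8 FPKM at 1 h and 66.3, 65.1 and 66.6 FPKM at 12 h. The 12 h libraries differed from each other by little and stood far above the rest, with a difference of 3.26 (SE 0.07). Tarm1, an activating receptor of myeloid cells, had 5.39, 4.87 and 4.68 FPKM in the untreated libraries, 5.82, 6.4 and 6.39 FPKM at 1 h and 30.4, 30.6 and 35.8 FPKM at 12 h, with each group apart from the next. Pilrb1 and Pilrb2 encode paired activating receptors that signal through the adaptor DAP12. Pilrb1 had 0.194, 0.305 and 0.195 FPKM in the untreated libraries, 0.636, 0.698 and 0.821 FPKM at 1 h and 4.83, 4.4 and 4.72 FPKM at 12 h. Pilrb2 had 0.317, 0.317 and 0.24 FPKM in the untreated libraries, 0.432, 0.56 and 0.90 FPKM at 1 h and 4.72, 5.0 and 5.0 FPKM at 12 h. Both were below 1 FPKM until 12 h, their 1 h libraries lay above the untreated ones, and their 12 h differences were 2.20 (SE 0.07) and 2.19 (SE 0.09).

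Ms4a6d, a membrane-spanning protein of macrophages, had 1.26, 1.12 and 1.5 FPKM in the untreated libraries, 1.19, 1.32 and 1.41 FPKM at 1 h and 6.65, 6.1 and 6.54 FPKM at 12 h. Tmem171 and Smim3 are transmembrane proteins of little-known function. Tmem171 had 0.427 ± 0.112 FPKM untreated, 0.612 ± 0.128 FPKM at 1 h and 2.84 ± 0.0651 FPKM at 12 h. Smim3 had 3.58 ± 0.237 FPKM untreated, 3.48 ± 0.274 FPKM at 1 h and 11.7 ± 0.167 FPKM at 12 h. Mpeg1 encodes perforin-2, a pore-forming protein of phagocytes that acts on engulfed bacteria, and had 33.7 ± 0.743 FPKM untreated, 32.2 ± 1.17 FPKM at 1 h and 72.4 ± 5.06 FPKM at 12 h. Mcemp1, a membrane protein first named in mast cells, had 1.11 ± 0.301 FPKM untreated, 1.06 ± 0.239 FPKM at 1 h and 3.6 ± 0.342 FPKM at 12 h. Trem3, an activating receptor of mouse myeloid cells, had 3.18 ± 0.311 FPKM untreated, 3.12 ± 0.685 FPKM at 1 h and 7.82 ± 0.858 FPKM at 12 h. None of these 6 was called different at 1 h.

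The other 4 membrane proteins were called lower at 1 h before they were higher at 12 h. Scimp is an adaptor that takes part in Toll-like receptor signaling in macrophages. It had 5.29, 5.28 and 5.6 FPKM in the untreated libraries, 3.89, 3.61 and 4.73 FPKM at 1 h and 16, 15.3 and 17.1 FPKM at 12 h. Cd52, a small glycoprotein anchored in the outer leaflet, had 45.2, 40.6 and 40.8 FPKM in the untreated libraries, 32.8, 31.7 and 38.3 FPKM at 1 h and 95.8, 109 and 116 FPKM at 12 h. In both genes every 1 h library lay below every untreated library and every 12 h library far above both. Cd300lf, an inhibitory receptor of the CD300 family, had 9.5, 8.82 and 9.64 FPKM in the untreated libraries, 7.03, 7.33 and 8.29 FPKM at 1 h and 20.4, 19.6 and 21.8 FPKM at 12 h. Tm4sf19, a tetraspan membrane protein, had 3.22 ± 0.32 FPKM untreated, 2.69 ± 0.353 FPKM at 1 h and 10.2 ± 0.313 FPKM at 12 h, with 1 h and untreated libraries that overlapped.

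Of the 4 transcription regulators, Cebpd encodes C/EBP delta, a bZIP factor that amplifies acute-phase and Toll-like receptor responses in macrophages. It had 7.64, 7.3 and 7.03 FPKM in the untreated libraries, 12.8, 14.4 and 14.7 FPKM at 1 h and 43.6, 40.9 and 44.7 FPKM at 12 h. The 3 groups were separate, and its 1 h difference of 0.84 was the highest of the 65, next to a 12 h difference of 2.40 (SE 0.05). Pou2f2 encodes OCT2, a POU domain factor known mainly from B cells, and had 1.07, 0.994 and 1.06 FPKM in the untreated libraries, 1.08, 0.93 and 1.0 FPKM at 1 h and 8.16, 8.43 and 7.97 FPKM at 12 h. It was flat at 1 h, with overlap, and differed by 2.17 (SE 0.05) at 12 h. Atf5, a bZIP factor of stress responses, had 5.6 ± 0.367 FPKM untreated, 5.43 ± 0.701 FPKM at 1 h and 14.6 ± 0.121 FPKM at 12 h. Sbno2, a helicase-like corepressor downstream of interleukin-10, had 6.5 ± 0.0759 FPKM untreated, 6.19 ± 0.141 FPKM at 1 h and 16 ± 0.186 FPKM at 12 h, and its 12 h difference was 1.18 (SE 0.04).

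Of the signaling and cytoskeletal genes, Stap1, an adaptor with PH and SH2 domains, had 15.1, 16.6 and 16.4 FPKM in the untreated libraries, 17.6, 17.2 and 18.5 FPKM at 1 h and 59.4, 57 and 56.5 FPKM at 12 h. Rhoc, a small GTPase that acts on actin, had 26.1, 23.5 and 26.2 FPKM in the untreated libraries, 31.8, 31.5 and 32.4 FPKM at 1 h and 81, 84.1 and 92.7 FPKM at 12 h. Cdc42ep2, an effector of the GTPase CDC42, had 2.55, 2.37 and 3.44 FPKM in the untreated libraries, 3.52, 4.36 and 4.33 FPKM at 1 h and 10.2, 8.29 and 9.59 FPKM at 12 h. In these 3 genes the 1 h libraries lay above the untreated ones, and all were called higher at 1 h. Arrdc4, an alpha-arrestin, had 2.82, 2.75 and 2.88 FPKM in the untreated libraries, 1.96, 2.18 and 2.0 FPKM at 1 h and 7.52, 7.52 and 8.77 FPKM at 12 h. Pid1, a phosphotyrosine-binding protein, had 5.29 ± 0.443 FPKM untreated, 4.3 ± 0.403 FPKM at 1 h and 15.2 ± 0.686 FPKM at 12 h. Both were lower at 1 h without overlap and higher at 12 h. Dok7, an adaptor known from the neuromuscular junction, had 1.79 ± 0.23 FPKM untreated, 1.69 ± 0.0597 FPKM at 1 h and 5.74 ± 0.539 FPKM at 12 h. Pstpip2, an F-BAR protein of macrophages, had 0.555 ± 0.0495 FPKM untreated, 0.556 ± 0.131 FPKM at 1 h and 2.28 ± 0.194 FPKM at 12 h. Fam49a, a RAC1-binding protein named Cyria in RefSeq, had 5.52 ± 0.034 FPKM untreated, 5.24 ± 0.541 FPKM at 1 h and 12.1 ± 0.323 FPKM at 12 h. None of these last 3 was called different at 1 h.

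The last 5 genes had other or unassigned roles. Glipr2, a Golgi-associated protein, had 2.03, 1.71 and 1.98 FPKM in the untreated libraries, 1.27, 1.75 and 1.77 FPKM at 1 h and 11.4, 10.9 and 13.6 FPKM at 12 h, and its 12 h difference was 2.15 (SE 0.09). AA467197 carries the RefSeq synonyms Nmes1 and mir-147. It had 0.279, 0.128 and 0.251 FPKM in the untreated libraries, 0.18, 0.32 and 0 FPKM at 1 h and 3.58, 2.34 and 3.78 FPKM at 12 h, so it was listed at 0 in 1 h library 3, and its spread at 12 h was the largest of the 65 (SD 0.28 on the log2 scale). Lix1 had 0.412 ± 0.0952 FPKM untreated, 0.347 ± 0.0126 FPKM at 1 h and 4.12 ± 0.864 FPKM at 12 h. Glrx, the thiol reductase glutaredoxin, had 17.6 ± 1.42 FPKM untreated, 16.6 ± 0.235 FPKM at 1 h and 38.5 ± 3.66 FPKM at 12 h. B430306N03Rik, with the RefSeq synonym Treml6, had 1.82, 1.38 and 1.65 FPKM in the untreated libraries, 1.07, 0.841 and 0.819 FPKM at 1 h and 4.09, 4.28 and 4.69 FPKM at 12 h, and its 1 h libraries all lay below the untreated ones.

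**Figure D5:**
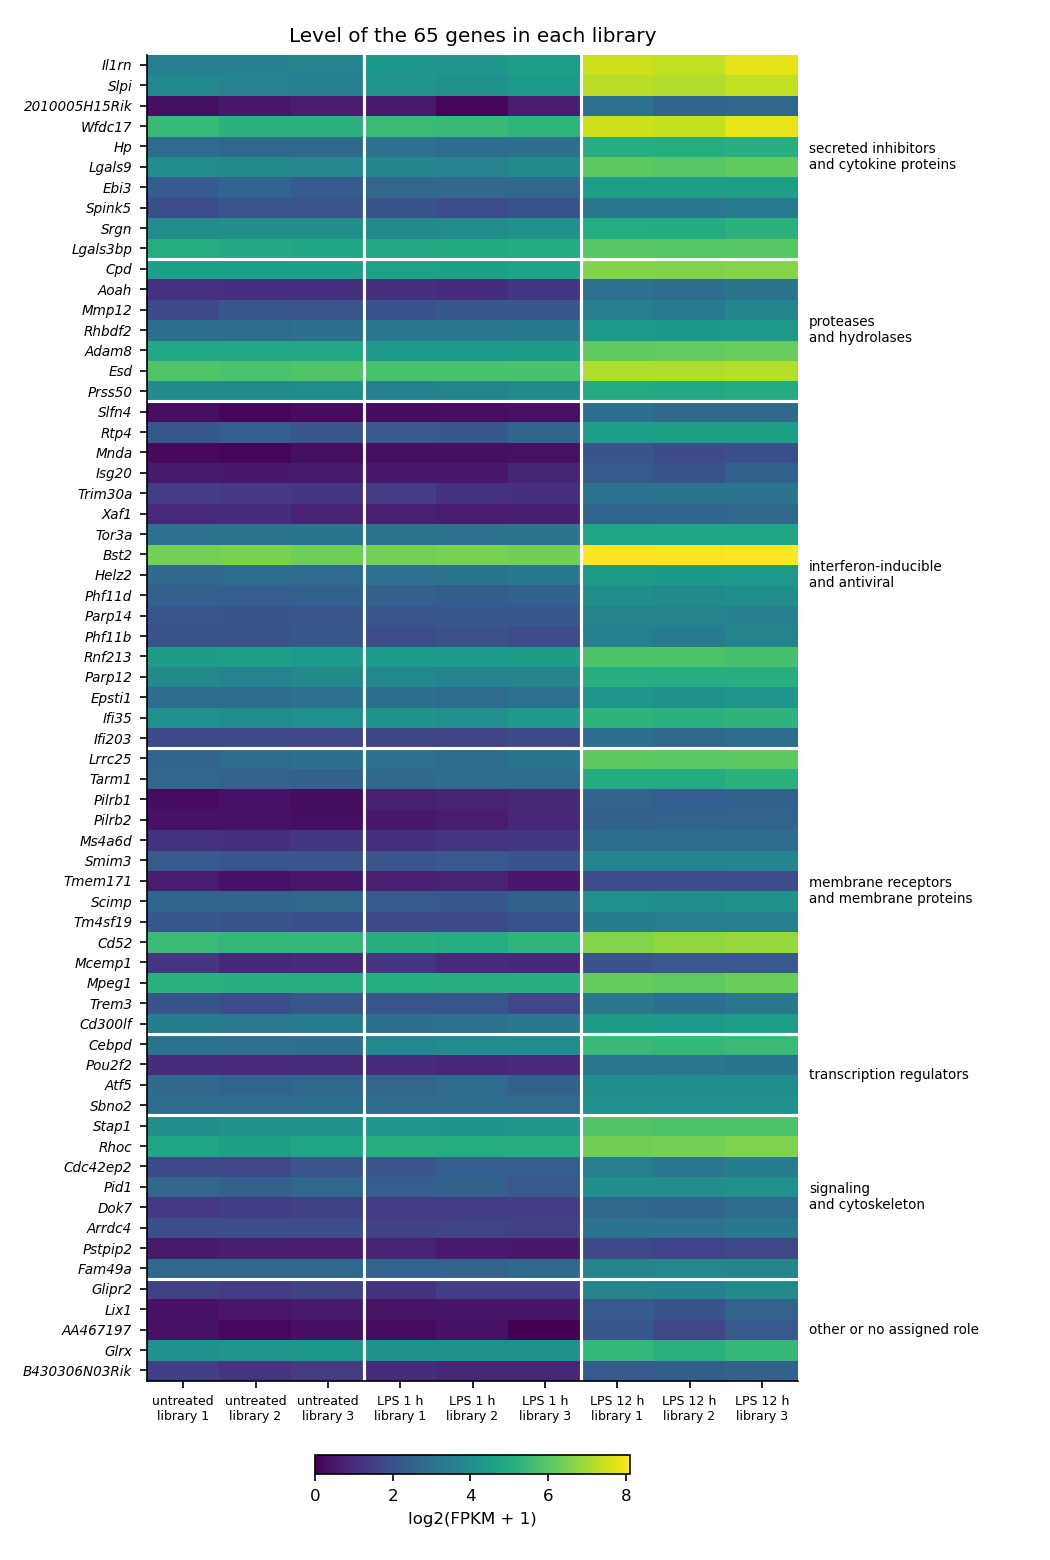
Level of each of the 65 genes in each of the 9 libraries, as log2(FPKM + 1) by colour, grouped by role of the product and ordered by the difference of 12 h minus untreated. White lines part the groups of libraries and roles; the untreated and 1 h columns look alike in most rows, and all 12 h columns are brighter.

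At 1 h the share of the 65 called higher was near that of all tested genes, and the share called lower was below it. The rule limited the difference at 1 h, so nothing is read from the counts that follow. The limma fit called 16 of the 65 higher than untreated cells, against a background of 24.1%, and 11 lower, against 34.9%, and 38 were called neither way. By the mean alone 30 lay above and 35 below untreated cells. The 16 were Il1rn, Slpi, Hp, Ebi3, Lrrc25, Tarm1, Pilrb1, Pilrb2, Cebpd, Cpd, Rhbdf2, Stap1, Rhoc, Cdc42ep2, Helz2 and Ifi35. The 11 were Adam8, Esd, Prss50, Xaf1, Scimp, Tm4sf19, Cd52, Cd300lf, Pid1, Arrdc4 and B430306N03Rik. By role, 4 of 10 secreted proteins were higher at 1 h and none lower, 2 of 7 proteases and hydrolases were higher and 3 lower, and 4 of 14 membrane proteins were higher and 4 lower. The rule left out any gene that was higher at 1 h by 1 or more on the log2(FPKM + 1) scale, so larger early differences on that scale could not appear. Pilrb1 and Pilrb2, both below 1 FPKM at that time, had mean FPKM values at 1 h of more than 2 times the untreated mean.

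Libraries of 1 group differed more in these genes than over all tested genes, most clearly at 1 h. The sets were not matched for level, with a median of 4.98 FPKM for the 65 and 12.8 FPKM for all tested genes in untreated cells. At 12 h these medians were 15.2 and 12.6 FPKM. The median SD on the log2 scale was 0.07 in untreated cells, 0.10 at 1 h and 0.06 at 12 h for the 65, and 0.05 in each group for all tested genes. The libraries also differed in a shared direction. At 12 h library 3 held the highest value in 40 of the 65 genes, library 1 in 17 and library 2 in 8, whereas library 3 was highest in 1890 of all 5643 tested genes. At 1 h library 3 was highest in 39 of the 65, against 2152 of 5643. What sets these libraries apart was not tested.

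The annotations in the table attached further terms to some of the genes, of which a few are given here without a rule for their choice. The rule used the lack of a pathway, so the comparison with the 86 is not independent of it. The 3232 tested genes without a pathway include the 65. Broad terms did not all lie near the background of the 3232. Cytoplasm did, in 25 of the 65, against 44 of the 86 and 1254 of the 3232. Membrane was more frequent than in the 3232, in 27 of the 65, against 44 of the 86 and 938 of the 3232. Nucleus was less frequent, in 23 of the 65, against 31 of the 86 and 1381 of the 3232. A term for the extracellular region or space was attached to 13 of the 65 genes (20.0%), against 18 of the 86 late-rising genes with a pathway (20.9%) and 133 of the 3232 tested genes without a pathway (4.12%). Proteolysis was attached to 6 of the 65, which were Adam8, Cpd, Hp, Mmp12, Prss50 and Rhbdf2, against 2 of the 86 and 87 of the 3232. Inhibition of serine endopeptidases was attached to 3, Slpi, Spink5 and Wfdc17, against 1 of the 86 and 4 of the 3232, these 3 included. Defense response to virus was attached to 4, Bst2, Isg20, Rtp4 and Trim30a, against 13 of the 86 and 31 of the 3232. Immune system process was attached to 8 of the 65, against 20 of the 86 and 83 of the 3232. The uninformative root term of biological process was attached to 16 of the 65, against none of the 86 and 595 of the 3232. Genes with a pathway are annotated by definition, so the choice of the sets bears on this contrast.

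Set beside the 86 late-rising genes with a KEGG pathway, the 65 had a median difference of 1.47 at 12 h, against 1.61, and a median level at 12 h of 15.2 FPKM, against 19.5 FPKM. A difference of at least 2 on the log2(FPKM + 1) scale was found in 17 of the 65 and 28 of the 86, and a mean FPKM of at least 4 times the untreated mean in 27 and 39. At 1 h 16 of the 65 and 27 of the 86 were called higher, and 11 and 18 were called lower. Both sets were chosen by the same conditions on time, so no test was made between them.

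The 65 genes were also placed in 6 lists of genes of like function, which had been drawn up with earlier results of these data known. In all 34 of the 65 were on a list and 31 on none. The list of interferon-inducible and antiviral genes had 65 tested entries, of which 19 were among the 65 late-rising genes. At 12 h 64 of these entries were called higher than in untreated cells and 1 lower, Mb21d1, the DNA sensor cGAS, with a list median of 0.88. Of these entries 28 met the late-rising conditions, with or without a pathway. They were chosen for their difference at 12 h, which raises the count and the median, and the other lists hold members chosen in the same way. At 1 h 7 were called higher and 18 lower, with a median of -0.06, where 24.1% of all tested genes were called higher and 34.9% lower. The list of acute phase, secreted and matrix genes had 28 tested entries, 5 of them among the 65, and at 12 h 19 were higher and 7 lower. Of 66 tested cell-surface entries, 4 among the 65, 46 were higher and 13 lower at 12 h. Of 62 tested transcription and chromatin regulators, 3 among the 65, 37 were higher and 18 lower. Of 94 tested signaling and feedback genes, 3 among the 65, 68 were higher and 13 lower. Of 67 tested stress and metabolic genes none was among the 65, and 57 were higher and 10 lower. Over all tested genes 41.1% were called higher and 40.6% lower at 12 h.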

How the data were processed

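RNA of BV2 cells was measured in 9 libraries, 3 per group. The submitters' processing notes list DESeq, HTSeq, Cufflinks, HISAT2 and Trimmomatic, with no version or role given. The notes also name GRCh38, a human build, although the genes are mouse genes. The authors deposited 1 table of FPKM per gene and library, without counts, so depth is unknown and the ratios given are rough. Per the file headers it also holds p-values and q-values, a rank score and a flag, none of which was used to choose or test genes.

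Levels were compared as log2(FPKM + 1), which understates changes of genes near 0. The 5643 genes whose FPKM averaged at least 1 entered a limma 3.58.1 fit in R 4.3.3 with trend, 1 mean per group, and Benjamini-Hochberg adjustment, with calls at an adjusted p under 0.05. The fit was also run on simulated data in which only a small part of the genes changed. In the real data 41.1% of tested genes were called higher and 40.6% lower at 12 h than in untreated cells. That run therefore cannot show how often the calls given here are wrong. Symbols, gene order, promoters and biotypes came from RefSeq, GRCm38.p6. All 65 genes matched by gene ID, 3 under another symbol, and all are protein-coding.

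The members, gene lists and tests were chosen with earlier results of these data known. Genes described with values follow a rule: the 12 largest smaller differences with at least 5 FPKM at 12 h, the 5 highest levels, up to 6 per list, the 5 highest and 5 lowest at 1 h, and genes without an assigned name. The remaining members were added, and all roles assigned, after their values were seen. Alternatives were other pseudocounts, level filters, scalings and thresholds, no trend, a block for the library number, and fits without 1 library each.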

Additional observations from a re-analysis of the deposited data

How the results depend on the processing

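When the mean FPKM had to reach 5 the rule gave 43 genes, all 43 called higher at 12 h than in untreated cells and all 43 higher than at 1 h, since 22 of the 65 fell below that filter. With a log2 limit of 1.5 at 12 h it gave 29. The median difference of the 65 at 12 h was 1.69 with a pseudocount of 0.1, 1.60 with 0.5, 1.44 over the genes reaching a mean FPKM of 5 and 1.56 after quantile normalization, against 1.47. Without 1 library at a time the rule gave 61 to 69 genes, and the median was 1.45 to 1.53. Between 14 and 17 genes were called higher at 1 h and 9 to 13 lower. At 12 h 62 to 65 were called higher over either earlier group, which was every member still in the fit. Only 62 of the 65 passed the level filter without 12 h library 1 or without 12 h library 3, and 64 without 12 h library 2. The 61 came without 12 h library 1, which dropped AA467197, Cdc42ep2, Mnda and Pstpip2, or without 12 h library 3, which dropped AA467197, B430306N03Rik, Mnda and Pstpip2. Other single libraries dropped B430306N03Rik, Cdc42ep2, Ifi35, Trem3, Fam49a or Mnda. The rule gave 84 genes with a pseudocount of 0.1, 77 with 0.5, 72 with no filter on level, 68 after quantile normalization and 65 after median-of-ratios scaling. Of the 65, 64 were among the 84, without Pilrb1, and 62 among the 68, without Ifi35, Lgals3bp and Mpeg1. Deviations of same-numbered libraries from their group means had correlations from -0.07 to 0.13, and those of differently numbered libraries from -0.15 to 0.14. With 3 libraries a group these values cannot show whether the libraries were paired. With the library number as a block, 16 genes were called higher and 11 lower at 1 h, and 65 higher at 12 h in both comparisons, the same counts as without it. Of the log2 differences of single genes under alternatives that can move them (other pseudocounts and scalings, and leaving out a library of the groups compared), 1558 moved by less than the spread between libraries, 378 by more, and none that was called changed sign. Depth in counts is unknown, so no counting interval could be given, and values of genes below 1 FPKM are the least certain.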

Other observations

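The 6 late-rising genes without a pathway that were left out by symbol had met the same conditions on level and time. Their timing was therefore fixed by the rule, and their values are given as description. Slc15a3, a lysosomal transporter of peptides and histidine, had 188, 180.2 and 203 FPKM at 12 h, against 24.7, 26.3 and 25.4 FPKM in untreated cells, and a 1 h difference of 0.98 on the log2 scale. Ifitm3, which blocks the entry of viruses at endosomes, had 338, 330.5 and 357 FPKM at 12 h, against 98.2, 107 and 96.0 FPKM in untreated cells. Ifitm6, of the same family, differed by 1.22 on the log2 scale at 12 h and by -0.50 at 1 h. Usp18, which removes ISG15 from proteins, differed by 2.08 at 12 h, Chac1, an enzyme that degrades glutathione, by 2.07, and Ifit3, an antiviral protein induced by interferon, by 1.68. In all 6 genes the 12 h libraries lay above every earlier library, which the rule makes likely. Of all tested genes, 41.9% had every 12 h library above every untreated one, and 42.4% above every 1 h one.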
